A study of Homo sapiens with 25 samples.

Results

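The genes described here encode the core proteins of the spliceosomal snRNPs and their LSM relatives, together with the SF3 proteins of the U2 snRNP. They were chosen by name alone: protein-coding genes whose symbol is LSM, SNRP or SF3A/SF3B followed by its member number or letter, plus PHF5A, a further SF3B protein. Of 58302 genes in the count files, 92 had a matching symbol, of which 35 were protein-coding and were kept. The 57 others are annotated as processed pseudogenes and were left out. All 35 passed the low-count filter in every comparison that was tested. The members fall into the Sm ring (8 genes), U1-specific proteins (2), U2-specific proteins (2), the LSM2 to LSM8 ring (7), the cytoplasmic LSM1, the U7 proteins LSM10 and LSM11, 3 other LSM-domain proteins, SF3A (3) and SF3B (7).

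The samples were hiF-T cells, a human fibroblast-like line made from BJ skin fibroblasts, with wild-type genotype in the labels and hTERT (the catalytic subunit of telomerase) under inducible control in every group. In the sort set, cells were taken from gates of high, midhigh, midlow or low dye accumulation, or were left ungated, with 4 biological replicates in each of these 5 groups. The series describes this sort as one by proliferation status, but the labels do not name the dye or say which gate holds the slowly dividing cells. The drug set held 2 LSD1 inhibition libraries, 1 DOT1L inhibition library, 1 DMSO library and 1 no drug library. No compound, dose, exposure time or passage is given in the labels, and all libraries come from 1 cell line. The comparisons ask whether the core splicing machinery differs with dye accumulation and with inhibition of either chromatin enzyme.

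The spliceosome removes introns from pre-mRNA and is built from small nuclear RNAs wrapped in proteins. In U1, U2, U4 and U5 the RNA is encircled by a ring of Sm proteins, while U6 carries a ring of LSM2 to LSM8. If LSM8 is replaced by LSM1, the same ring sits in the cytoplasm and promotes decapping and decay of mRNA. SF3A and SF3B bind U2 and help it to hold the branch point of the intron, and SF3B1 is a frequent target of mutation in blood disorders and of splicing inhibitors.

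Gene counts per library came to between 15015039 and 20030093, and the members took 0.26% to 0.325% of them. A gene without a read could still lie at 3 counts, or 0.15 to 0.2 CPM (counts per 1000000 gene counts). That floor takes in the error of counting and no other error. The CPM values of genes and gene sums below are in addition scaled by TMM, the library scaling of edgeR. Of 12 fibroblast markers, 8 had a median of at least 10 CPM over all libraries, led by FN1 at 13800 CPM. THY1, a surface antigen of many fibroblasts, lay at a median of 0.448 CPM. Of the leukocyte markers, 0 of 10 reached a median of 1 CPM, and NKG7 had no read in any library. The same held for 8 of 9 melanocyte and Schwann cell markers, with SOX10 at 0 throughout. Of the epithelial, endothelial and neuronal markers, only KRT8, KRT18, TEK and SYT1 reached a median of 10 CPM.

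To show the control regions of members that differ in the results below, the stretches upstream of 4 genes were taken from RefSeq (GRCh38.p14). They are the 3 members of smallest p among those that fell in high dye, and the member of smallest change, among the 15 members whose RefSeq start lies within 100 bases of the GENCODE 5′ end. Each is the longest run, within the 250 bases before the RefSeq start, that holds no exon of a protein-coding gene, and is written 5′ to 3′ on the gene's strand. Capitals mark matches to the motifs listed after the sequences. The stretch of LSM5 lies at chr7:32495284-32495425 (minus strand), that of SNRPF at chr12:95858702-95858927 (plus strand), that of LSM2 at chr6:31806985-31807216 (minus strand) and that of SF3B1 at chr2:197435094-197435343 (minus strand).
LSM5: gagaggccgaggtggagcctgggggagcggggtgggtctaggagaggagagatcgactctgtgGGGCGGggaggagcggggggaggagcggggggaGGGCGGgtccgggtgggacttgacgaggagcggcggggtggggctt
SNRPF: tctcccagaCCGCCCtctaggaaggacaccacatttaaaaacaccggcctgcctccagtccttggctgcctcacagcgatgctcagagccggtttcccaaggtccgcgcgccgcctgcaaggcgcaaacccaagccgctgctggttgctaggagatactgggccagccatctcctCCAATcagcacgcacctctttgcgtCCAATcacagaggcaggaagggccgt
LSM2: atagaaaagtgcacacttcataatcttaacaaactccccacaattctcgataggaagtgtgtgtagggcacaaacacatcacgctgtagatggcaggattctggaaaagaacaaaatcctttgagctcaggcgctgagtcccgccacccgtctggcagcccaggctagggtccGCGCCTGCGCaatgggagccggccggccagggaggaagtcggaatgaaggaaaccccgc
SF3B1: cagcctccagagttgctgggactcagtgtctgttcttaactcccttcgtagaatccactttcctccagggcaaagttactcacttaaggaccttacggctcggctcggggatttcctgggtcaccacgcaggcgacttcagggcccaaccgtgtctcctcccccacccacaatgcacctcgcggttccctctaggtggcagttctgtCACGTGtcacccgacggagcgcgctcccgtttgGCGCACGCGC

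Searches for 8 motifs covered both strands. The ETS motif was searched as CCGGAAG, which is the core bound by many factors of that family. The CCAAT box was searched by the letters of its name. CACGTG stood for the E-box, to which MYC and related factors bind. GGGCGG was taken as the GC box, the site of SP1 and its relatives. TTTCCCGC was taken for E2F, a family known from S phase genes. AAGATGGCG was taken for YY1, and TATAAA for the TATA box, while NRF1 is given by name alone. The printed matches do not overlap. In the printed stretches, LSM5 had GC boxes that begin 79 and 46 bases before the start, SNRPF had CCAAT boxes at 75 and 50 bases and a GC box at 241 bases, and LSM2 had an NRF1 match at 77 bases. SF3B1 had an E-box at 43 bases and an NRF1 match at 10 bases. Across RefSeq windows of 250 bases before to 50 after a start, 29 of the 35 members had 40 windows. The ETS letters stood in 45% of these, against 16.8% of the 15387 windows of genes tested in the sort set and 10.3% of all 35116 windows. NRF1 letters stood in 25% of member windows, against 9.9% of the windows of tested genes. The GC box stood in 50% of member windows, against 65.1% of those of tested genes, and the CCAAT box in 27.5%, against 35%. The E-box letters stood in 5.0% of member windows, against 9.2% of those of tested genes, E2F letters in 5.0%, against 2.4%, YY1 letters in 7.5%, against 3.4%, and TATA letters in 2.5%, against 6.5%. The ETS letters were found in 8 of the 14 members with a window that fell in high dye, beside 7 of the 15 others. The 1 member window with TATA letters belongs to SNRPC. A match describes letters and not binding.

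In ungated cells the members differed widely in level. Divided by the length of the principal transcript, SNRPD2 (117 ± 10 CPM per kilobase, SD, n = 4), SNRPB (108 ± 11.8) and SF3B2 (106 ± 2.95) stood highest and did not differ beyond their spread. Per kilobase of all annotated exons the order was another, with SNRPB at 97.5, SNRPD2 at 65.5, SF3B5 at 65.3 and SF3B2 at 31.5 CPM per kilobase. By principal transcript, SF3B6 (87.2 ± 6.47) and SNRPC (83.8 ± 5.86) followed, also within their spread. SF3B1 reached 72.8 ± 5.25 and LSM5 18.5 ± 1.55 CPM per kilobase by principal transcript, or 51.8 and 8.87 by all exons. At the low end stood LSM12 (4.83 ± 0.492), LSM11 of the U7 snRNP (1.92 ± 0.243) and SNRPN (0.91 ± 0.339), which encodes a near copy of SNRPB known mainly from neurons. LSM12 has a pseudogene with 2228 counts over the 25 libraries, beside 4800 of the gene itself, so its level is uncertain. SNRPG, SNRPC and SNRPE have 20, 18 and 10 named pseudogenes, and their levels are uncertain in the same way, although these pseudogenes took only 840, 103 and 893 counts. Exons of other genes overlap 33.58% of SNRPN and 20.03% of SNRPB. How reads there were assigned is not given in the sources used here, so the levels of SNRPN and SNRPB are uncertain too.

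High dye against low dye gave lower levels of much of the module. Of the 35 members, 18 fell in high dye while 0 rose (edgeR quasi-likelihood test, Benjamini-Hochberg adjusted p under 0.05 over 14592 genes), where 8.35% of all genes tested fell and 9.39% rose. With DESeq2 20 members fell and 0 rose (9.64% of all genes fell and 10.4% rose), and at an unadjusted p under 0.05 the edgeR fit had 23 lower and 1 higher (15.3% and 16.9% of all genes). The median log2 fold change was -0.26 for the members and 0.01 for all genes tested. The falls were modest, between log2 -0.20 for SF3A1 and -0.51 for LSM5 and LSM6. An error given with a log2 fold change is its standard error, and one given with CPM is the SD over 4 libraries. In 16 members every high dye library lay below every low dye library, against 9.34% of all genes, and 23 members were lower in all 4 pairs of the same replicate number, against 21.8% of all genes. Because replicate numbers pair the sort libraries, a fit with the replicate as a block was also made. It added SNRPC, SF3B2 and SF3B4 to those that fell and SNRPN as 1 that rose, in which fit 17.4% of all genes fell and 19.8% rose.

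The summed level of the 35 members was 2623, 2841, 2592 and 2893 CPM in high dye replicates 1 to 4, against 3208, 3126, 3184 and 3172 CPM in low dye. The groups do not overlap, and high dye replicates 1 and 3 were the lowest. Those 2 libraries also had the lowest sums of the 26 S phase markers, at 1355 and 1189 CPM, beside 2116 and 2302 CPM in high dye replicates 2 and 4 and 3008 to 3435 CPM in low dye. They also had more genes detected, 24237 in replicate 1 and 26481 in replicate 3, the most of all 25 libraries, beside 22630 and 21991 in high dye replicates 2 and 4 and 22480 to 23040 in low dye. The part of these library differences in the members' values was not tested. Without high dye replicate 3, 11 members fell and 0 rose (3.98% and 4.52% of all genes), and without high dye replicate 1, 12 fell and 0 rose (4.79% and 5.47%). Without both, 1 member (LSM5) fell and 0 rose (0.152% and 0.477% of all genes), and with the replicate block 14 fell and 0 rose (6.83% and 9.73%). The joint omission was chosen after the values were seen. A fit of the 8 compared libraries alone called 9 members lower and 0 higher (4.67% and 6.17% of genes). In bulk libraries, fewer cells of a type and less RNA per cell cannot be told apart.

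**Figure D1:**
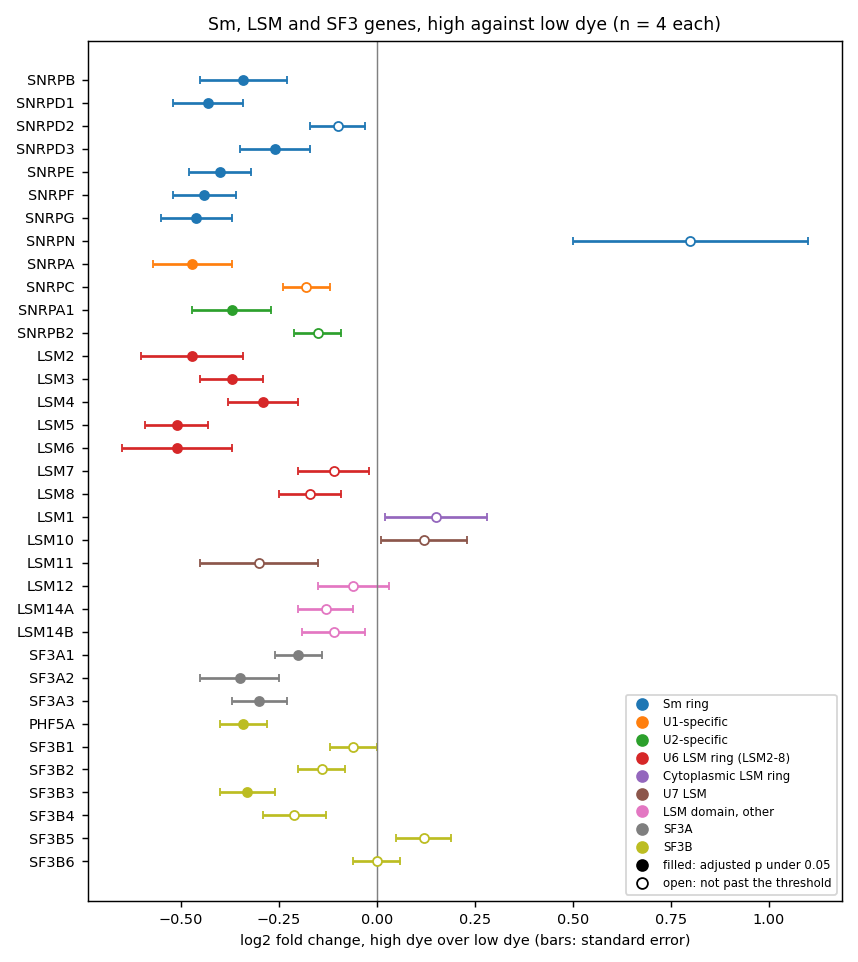
Log2 fold change of each member in high dye over low dye (horizontal axis, bars are standard errors, n = 4 libraries a group), coloured by role, with filled points past an adjusted p of 0.05. The 18 filled points all lie left of 0, between -0.51 and -0.20, and SNRPN, an open point at 0.80, is farthest to the right.

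In the Sm ring, 6 of 8 genes fell in high dye. SNRPE, SNRPF and SNRPG join as a trimer on the way to the ring and are common to all snRNPs of the Sm class. SNRPF had 36.1, 47.7, 38.0 and 44.8 CPM in high dye, against 55.8, 61.4, 56.4 and 52.2 CPM in low dye. SNRPG had 34.3, 42.0, 31.4 and 40.1 CPM in high dye, against 51.0, 54.6, 47.5 and 50.4 CPM in low dye. For both genes the groups lie apart, with high dye replicates 1 and 3 lowest. The log2 fold change was -0.44 ± 0.08 for SNRPF (SE, adjusted p 0.0025, edgeR quasi-likelihood test with Benjamini-Hochberg adjustment) and -0.46 ± 0.09 for SNRPG (adjusted p 0.003, same edgeR test). SNRPE averaged 48.8 ± 3.86 CPM in high dye, against 64.2 ± 6.42 CPM in low dye (SD, n = 4 each), without overlap, at a log2 fold change of -0.40 ± 0.08. SNRPD1 fell by 0.43 ± 0.09 on the log2 scale, also without overlap.

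SNRPB fell by 0.34 and SNRPD3 by 0.26 on the log2 scale, with overlapping groups. Both passed the threshold in only 2 of the 8 fits that left out 1 high or low dye library, those without low dye replicate 2 and without high dye replicate 4. SNRPD2, which pairs with SNRPD1 in the ring, averaged 102 ± 2.61 CPM in high dye, against 110 ± 5.07 CPM in low dye (SD, n = 4 each), a log2 difference of -0.10 ± 0.07 that did not pass (edgeR adjusted p 0.338). Exons of other genes overlap 24.65% of SNRPD3 (GGT1 on its strand and GUCD1 on the other) and 20.03% of SNRPB (an unnamed gene on its strand). The library kit does not record strand, and how reads there were assigned is not given in the sources used here.

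SNRPN lay higher in high dye, at a very low level. It had 27, 28, 26 and 47 counts in high dye, against 18, 18, 11 and 24 counts in low dye. These are 1.58, 1.51, 1.56 and 2.7 CPM in high dye, against 1.13, 0.916, 0.704 and 1.47 CPM in low dye. Every high dye library lay above every low dye library, as held for 9.62% of all genes tested. The log2 difference of 0.80 ± 0.30 did not pass in the fit without pairing (edgeR adjusted p 0.0681) and passed with the replicate block (edgeR adjusted p 0.0343). Of the 8 unpaired fits that left out 1 library it passed in 1, without low dye replicate 4, and of the 8 such fits with the block in 3, those without low dye replicate 1, high dye replicate 2 or low dye replicate 4. Neuronal markers lay on the same side. All 4 of 10 that could be tested were higher in high dye, at a median log2 difference of 0.77 (range 0.25 to 2.23). Of these, 0 passed in edgeR (also 0 at an unadjusted p under 0.05 and 0 in DESeq2). With the replicate block 4 passed, where 19.8% of all genes rose. Medians also lay above 0 for the fibroblast (0.59), melanocyte and Schwann cell (0.56), endothelial (0.33) and leukocyte markers (1.5, 1 gene tested). That of the epithelial markers did not. The part of any of these lists in the SNRPN values was not tested. Exons of SNURF, which shares its transcript, and of other genes overlap 33.58% of SNRPN.

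The balance of these paralogues differed between the outer gates. The log2 ratio of SNRPN to SNRPB counts averaged -6.00 ± 0.29 in high dye, against -7.12 ± 0.48 in low dye (SD, n = 4 each), a difference of 1.12. An exact two-sided permutation test over the 70 assignments gave p 0.0286, the smallest it can give, and 0.0286 after adjustment over the 2 ratios examined. This test uses the same SNRPN and SNRPB counts as the fits above and is no separate evidence. The ratio was higher in high dye in all 4 pairs, but flipping the signs of 4 pairs cannot give a p below 0.125. It averaged -6.11 ± 0.37 in midhigh dye, -6.86 ± 0.25 in midlow dye and -6.19 ± 0.72 in ungated cells, and SNRPB had more counts than SNRPN in each group.

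Among the snRNP-specific proteins, 1 of each pair fell in the edgeR fit without pairing. SNRPA, the U1 protein that binds a stem loop of U1 RNA, had 39.0, 44.6, 35.2 and 53.1 CPM in high dye, against 59.8, 54.7, 64.4 and 58.9 CPM in low dye. The groups lie apart, narrowly between high dye replicate 4 and low dye replicate 2. Its log2 fold change was -0.47 ± 0.10 (adjusted p 0.0055, edgeR quasi-likelihood test with Benjamini-Hochberg adjustment). SNRPC, the U1 protein that steadies pairing with the 5′ splice site, averaged 67.3 ± 2.11 CPM in high dye, against 76.4 ± 6.07 CPM in low dye. Its log2 difference of -0.18 ± 0.06 missed the threshold without pairing (edgeR adjusted p 0.0585). SNRPC passed with the replicate block (edgeR adjusted p 0.0081) and in DESeq2 (DESeq2 adjusted p 0.0433).

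SNRPA1, a leucine-rich repeat protein of U2, had 30.4, 34.1, 35.8 and 44.4 CPM in high dye, against 44.3, 42.3, 49.7 and 50.3 CPM in low dye. High dye replicate 4 lies within the low dye range, and the log2 fold change was -0.37 ± 0.10 (edgeR adjusted p 0.0158). The call was lost without high dye replicate 1 and without low dye replicate 4. SNRPB2, which binds U2 RNA together with SNRPA1, lay at 77.5 ± 4.46 CPM in high dye, against 85.8 ± 5.71 CPM in low dye, without overlap and without passing (log2 -0.15 ± 0.06, edgeR adjusted p 0.123).

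Of the ring that caps U6 RNA, 5 of 7 genes fell, namely LSM2, LSM3, LSM4, LSM5 and LSM6. LSM5 had 33.3, 33.9, 27.4 and 35.6 CPM in high dye, against 50.9, 45.5, 44.5 and 45.2 CPM in low dye. The groups are far apart, and this gene had the smallest p of all members, at a log2 fold change of -0.51 ± 0.08 (adjusted p 0.00096, edgeR quasi-likelihood test with Benjamini-Hochberg adjustment). LSM3 had 41.2, 51.2, 39.1 and 51.3 CPM in high dye, against 57.9, 60.8, 57.7 and 59.7 CPM in low dye, again without overlap (log2 -0.37 ± 0.08, edgeR adjusted p 0.0053). LSM2 had 18.2, 22.8, 14 and 20.8 CPM in high dye, against 23.7, 29.4, 23.0 and 29.2 CPM in low dye (log2 -0.47 ± 0.13, edgeR adjusted p 0.0146), and its groups are separated only narrowly. Without high dye replicate 3 the LSM2 call was lost.

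LSM6 fell by 0.51 ± 0.14 and LSM4 by 0.29 ± 0.09 on the log2 scale, both with overlapping groups. Without high dye replicate 1 or replicate 3 neither passed. Without low dye replicate 2, LSM6 did not pass, and LSM4 did not without low dye replicate 3 or 4. LSM7 (log2 -0.11 ± 0.09) and LSM8 (log2 -0.17 ± 0.08) did not pass (edgeR adjusted p 0.452 and 0.145). LSM8, the subunit that keeps the ring nuclear, averaged 29.4 ± 1.42 CPM in high dye, against 33.2 ± 1.5 CPM in low dye, and its groups did not overlap.

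LSM1, which takes the place of LSM8 in the cytoplasmic ring, averaged 18.7 ± 0.672 CPM in high dye, against 16.9 ± 2.64 CPM in low dye, a log2 difference of 0.15 ± 0.13 (edgeR adjusted p 0.439). The log2 ratio of LSM8 to LSM1 counts was 0.78, 0.68, 0.53 and 0.62 in high dye, against 0.82, 1.23, 0.86 and 1.04 in low dye. The groups lie apart, by a narrow margin between high dye and low dye replicate 1. The mean ratio was lower in high dye by a log2 difference of -0.33, in 4 of 4 pairs. An exact two-sided permutation test without pairing gave p 0.0286, the smallest possible, and 0.0286 after adjustment over the 2 ratios. This test uses the same LSM8 and LSM1 counts as the fits above and is no separate evidence. Flipping the signs of the 4 pairs gave p 0.125, the smallest that such flips can give. The ratio averaged 0.99 ± 0.19 in low dye, 0.84 ± 0.20 in midlow dye, 0.70 ± 0.22 in midhigh dye and 0.65 ± 0.10 in high dye, with 0.91 ± 0.07 in ungated cells. Neighbouring gates did not differ beyond their spread. Exons of BAG4 and of an unnamed gene overlap 38.46% of LSM1, and how reads there were assigned is not given in the sources used here.

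Of the other 5 LSM genes, 0 passed the threshold in edgeR, also at an unadjusted p under 0.05, or in DESeq2. LSM10 and LSM11 replace a pair of Sm proteins in the U7 snRNP, which matures histone mRNA. LSM10 averaged 24.9 ± 1.01 CPM in high dye, against 22.9 ± 1.58 CPM in low dye (log2 0.12 ± 0.11), while LSM11 averaged 12.2 ± 2.74 CPM in high dye, against 15 ± 1.75 CPM in low dye (log2 -0.30 ± 0.15). LSM11 passed without high dye replicate 4. The largely cytoplasmic LSM12, LSM14A and LSM14B, of which LSM14A sits in P-bodies, had log2 differences of -0.06 ± 0.09, -0.13 ± 0.07 and -0.11 ± 0.08. In LSM14B every high dye library lay below every low dye library.

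All 3 SF3A genes fell, against 2 of 7 SF3B genes (4 of 7 with the replicate block). SF3A3, whose product is also called SF3a60, had 117, 141, 115 and 142 CPM in high dye, against 157, 171, 150 and 155 CPM in low dye. The groups lie apart, and the log2 fold change was -0.30 ± 0.07 (edgeR adjusted p 0.0088). SF3A1 averaged 126 ± 8.09 CPM in high dye, against 144 ± 4.3 CPM in low dye, also apart (log2 -0.20 ± 0.06, edgeR adjusted p 0.021). SF3A2 had 35.5, 31.1, 29.3 and 34.8 CPM in high dye, against 44.6, 35.4, 43.3 and 43.7 CPM in low dye, where low dye replicate 2 lay below high dye replicate 1 (log2 -0.35 ± 0.10). SF3A2 was lost without high dye replicate 3, and SF3A1 without high dye replicate 1 or 3 or low dye replicate 1 or 4.

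Within SF3B, PHF5A and SF3B3 fell. PHF5A, a small zinc finger protein that lines the branch point pocket together with SF3B1, had 25.9, 27.6, 26.3 and 25.6 CPM in high dye, against 34.4, 30.3, 34.4 and 34.3 CPM in low dye. Its groups lie apart and high dye varied little, at a log2 fold change of -0.34 ± 0.06 (adjusted p 0.002, edgeR quasi-likelihood test with Benjamini-Hochberg adjustment). SF3B3, a scaffold of the complex, had 263, 293, 244 and 294 CPM in high dye, against 329, 350, 336 and 356 CPM in low dye, with no overlap (log2 -0.33 ± 0.07, edgeR adjusted p 0.0062).

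SF3B1, the largest SF3B protein and the one that surrounds the branch point, did not pass: it averaged 444 ± 14.8 CPM in high dye, against 462 ± 13.3 CPM in low dye (log2 -0.06 ± 0.06, edgeR adjusted p 0.535). SF3B6, which touches the branch point adenosine, averaged 64.3 ± 2.9 CPM in high dye, against 64.2 ± 2.37 CPM in low dye. SF3B5 had a log2 difference of 0.12 ± 0.07. SF3B2 (log2 -0.14 ± 0.06) and SF3B4 (log2 -0.21 ± 0.08) missed the threshold in the edgeR fit (adjusted p 0.0965 and 0.0904) and passed it with the replicate block. In DESeq2, SF3B2 passed (DESeq2 adjusted p 0.0324) and SF3B4 did not (DESeq2 adjusted p 0.0781). Whether the members of SF3A and of SF3B differ in response was not tested.

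**Figure D2:**
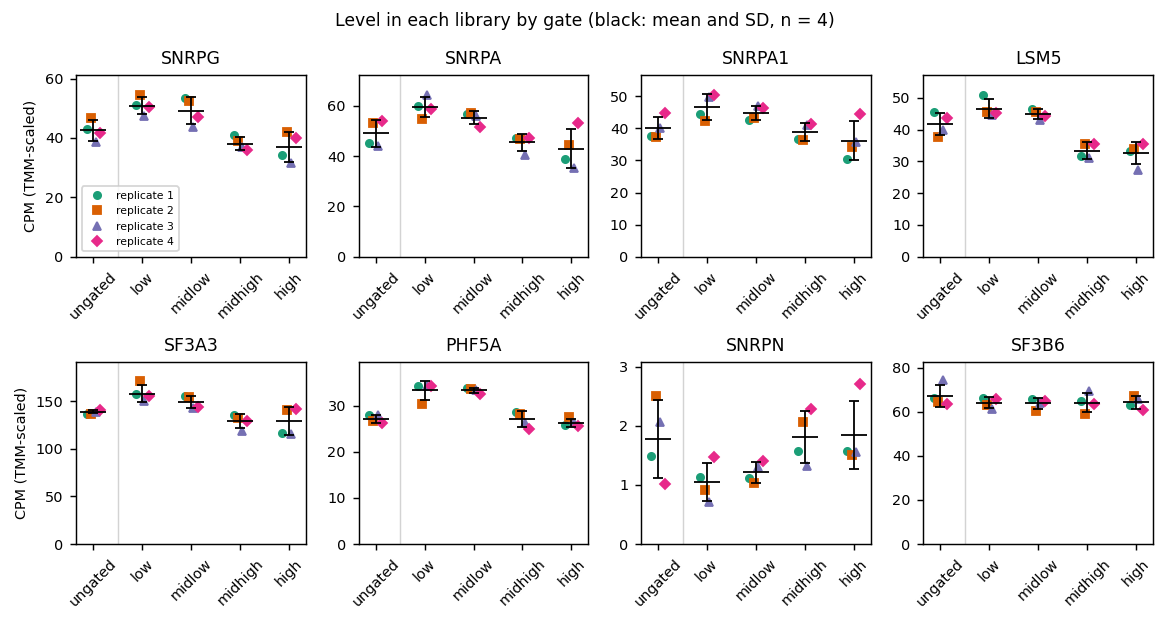
Level of 8 members in each library (vertical axes, TMM-scaled CPM from 0) in ungated cells and in the 4 gates from low to high dye, with replicates by colour and shape and the mean and SD in black (n = 4). SNRPG, SNRPA, SNRPA1, LSM5, SF3A3 and PHF5A are lower in midhigh and high dye, SNRPN is higher and SF3B6 is level, at 64.2 CPM in low dye and 64.3 CPM in high dye.

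Across the 4 gates the members' median changed most between midlow and midhigh dye. The summed level of the members averaged 3172 ± 34.5 CPM in low dye, 3092 ± 76.3 in midlow, 2821 ± 74.8 in midhigh and 2737 ± 152 in high dye, with 2942 ± 54.8 in ungated cells (SD, n = 4). From gate to gate, the median member changed by log2 -0.04 from low to midlow, -0.16 from midlow to midhigh and -0.04 from midhigh to high dye, where the median of all genes lay at 0.00, 0.01 and 0.00. In the middle step 31 of 35 members were lower, and 48.0% of all genes were. LSM5, for example, had means of 46.5 ± 2.94 CPM in low, 44.8 ± 1.56 in midlow, 33.4 ± 2.55 in midhigh and 32.6 ± 3.56 CPM in high dye.

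A slope fitted over the 4 gates, with equal steps assumed, called 22 members falling and 1 rising, with 12.3% of all 14419 genes falling and 14% rising (26.2% in all). It uses the same high and low dye libraries as the comparison above and is no separate evidence. The slopes called ran from log2 -0.20 ± 0.03 per gate for LSM5 (edgeR adjusted p 0.00038) to -0.06 ± 0.02 for SNRPB2 (edgeR adjusted p 0.0484). SNRPN rose by 0.30 ± 0.08 per gate (edgeR adjusted p 0.0152). Beyond the 18 named above, SNRPC, SNRPB2, LSM8 and SF3B4 fell. Of these 23 calls 20 held in all 16 fits that left out 1 library, while SNRPB2 and SF3B4 were each lost in 11 and LSM8 without high dye replicate 3. Without high dye replicates 1 and 3 together, 9 members fell and 1 rose (4.49% and 5.13% of genes), or 21 and 1 with the replicate block (13.5% and 16.6%). With all libraries, the block gave 25 falling and 1 rising (20.7% and 23.1%) and DESeq2 24 and 1 (13.6% and 14.9%).

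**Figure D3:**
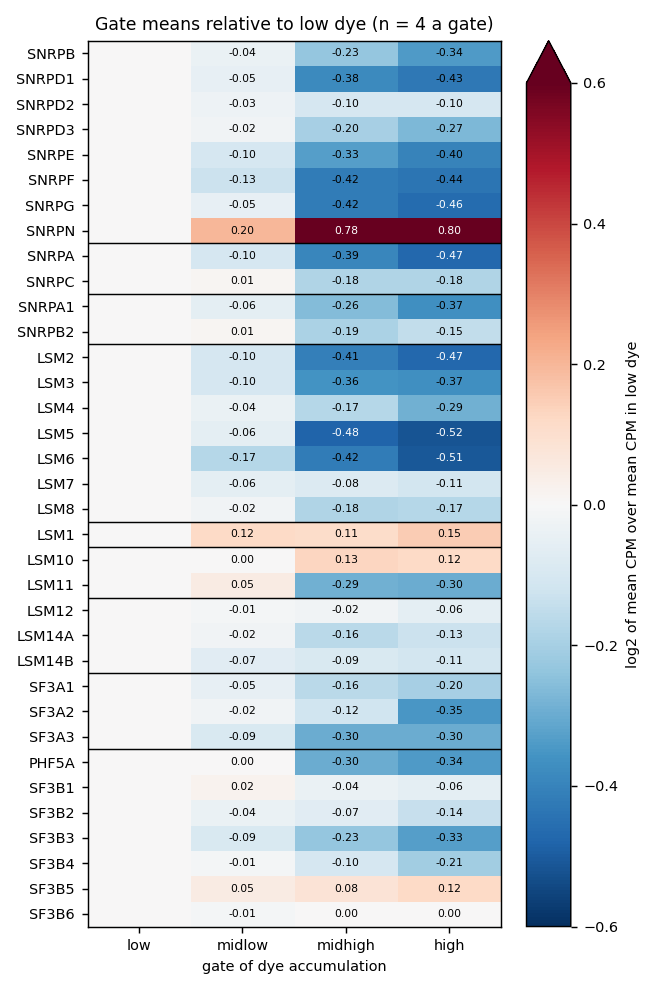
Log2 of the mean CPM in each gate over the mean in low dye (colour and printed value, n = 4 libraries a gate), with 1 row per member and lines between roles. Most rows are near 0 in midlow dye and below 0 in midhigh and high dye, down to -0.52 for LSM5, whereas SNRPN reaches 0.80.

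Between midhigh and midlow dye alone, 0 members passed in the fit without pairing, as did 0.0% of all genes, although 13 members, all lower, had an unadjusted p under 0.05 (6.56% of all genes were lower at that p) and DESeq2 called 3 lower and 0 higher (0.363% and 0.473% of all genes). With the replicate block 13 members were lower and 0 higher (5.27% and 5.52% of all genes). They were SNRPD1, SNRPE, SNRPF, SNRPG, SNRPA, SNRPC, SNRPA1, SNRPB2, LSM2, LSM3, LSM5, SF3A3 and PHF5A. LSM5 had 31.6, 35.6, 30.9 and 35.6 CPM in midhigh dye and 46.5, 45.6, 43.0 and 44.1 CPM in midlow dye, a log2 difference of -0.42 ± 0.07 with the replicate block (edgeR adjusted p 0.0017) and an adjusted p of 0.16 in the edgeR fit without it. PHF5A had 28.6, 28.3, 26.3 and 25 CPM in midhigh dye, against 33.9, 33.6, 33.5 and 32.6 CPM in midlow dye. In both genes the groups lie apart, as they did, with midhigh dye lower, in 15 members and in 4.77% of all genes.

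Ungated cells lay between the outer gates in the members' summed level. High dye against ungated cells gave 0 members called (0.00685% of all genes were called, all higher, and DESeq2 called 0 members, with 0.0137% of genes lower and 0.117% higher), with 9 lower at an unadjusted p under 0.05 (5.55% of all genes). With the replicate block LSM5, SF3B3, LSM4 and SNRPF were lower and 0 members higher, where 3.93% of all genes were lower and 3.66% higher. LSM5 had 33.3, 33.9, 27.4 and 35.6 CPM in high dye, against 45.6, 37.8, 39.8 and 43.6 CPM in ungated cells, and was the only member with every high dye library below every ungated one (1.71% of all genes), while LSM1 was the only one with every library above (1.67%). Low dye against ungated cells also gave 0 members (0.0754% of all genes, all lower), while 11 had an unadjusted p under 0.05 on the higher side and 1 (SNRPN) on the lower (5.38% and 7.63% of all genes). DESeq2 called 1 higher and 0 lower (0.233% and 1.06% of all genes), namely PHF5A, which averaged 33.4 ± 2.03 CPM in low dye and 27.2 ± 0.891 CPM in ungated cells. With the replicate block 9 members were higher in low dye and 0 lower (3.59% and 7.2% of all genes), namely SNRPB, SNRPE, SNRPF, SNRPG, SNRPA, SNRPA1, LSM3, SF3A3 and PHF5A. In 7 members every low dye library lay above every ungated one, against 4.21% of all genes. These contrasts share their libraries with the high against low dye comparison.

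The wider splicing machinery was read from 10 lists of partner genes in high against low dye, beside the 8.35% of all genes that fell. Of the U5 and tri-snRNP proteins 6 of 16 fell, led by PPIH, a prolyl isomerase of the tri-snRNP, at log2 -0.53 ± 0.10. Of the U2 partners 7 of 14 fell (RBM17, log2 -0.38 ± 0.08) and of the U1 partners 2 of 9 (RBM25, log2 -0.24 ± 0.06). Of the PRP19 complex and activation factors 6 of 25 fell. The next list joins the SMN complex, which loads Sm rings on snRNA, with other snRNP assembly factors, and 3 of its 23 genes fell (GEMIN4, SART3 and RIOK1). The minor spliceosome's U11/U12 proteins had 0 of 10 lower and 1 higher, SCNM1 at log2 0.34 ± 0.11 (edgeR). At an unadjusted p under 0.05, 3 of them were lower and 2 higher, and DESeq2 called 0 lower and 1 higher. With the replicate block 3 of them fell and 2 rose, where 17.4% of all genes fell and 19.8% rose. The block also gave 8 of 16 U5 and tri-snRNP proteins, 10 of 14 U2 partners, 5 of 9 U1 partners, 10 of 25 PRP19 and activation factors and 6 of 23 SMN and assembly factors lower, with 0 higher in these 5 lists and 17.4% of all genes lower.

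Among regulators of splice choice, 23 of 28 hnRNP genes fell, with a list median of log2 -0.41, led by HNRNPD at -0.57 ± 0.14. Of 19 SR genes 8 fell, led by SRSF7 at log2 -0.61 ± 0.10 (edgeR adjusted p 0.00099). The decapping partners of the LSM1 ring gave 0 of 10 in either direction in edgeR and in DESeq2, with 1 lower and 1 higher at an unadjusted p under 0.05 and a median of log2 -0.08. Of 9 genes for U7 function and histone mRNA 6 fell, CASP8AP2 most (log2 -0.70 ± 0.12). With the replicate block 24 hnRNP and 11 SR genes fell and 0 of either list rose, 2 decapping partners fell and 1 rose, and 8 genes for U7 function and histone mRNA fell and 0 rose. In that fit 17.4% of all genes fell and 19.8% rose, so the decapping counts lie near or below those shares.

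Genes of the cell cycle moved with the module. Of 26 S phase markers 25 fell in high dye, with a median log2 fold change of -0.93, and 15 of 20 G2 and mitosis markers fell, with a median of -0.69. The S phase sum averaged 1741 ± 550 CPM in high dye, against 3238 ± 209 CPM in low dye, and the G2 and mitosis sum 2749 ± 1000 CPM in high dye, against 4314 ± 357 CPM in low dye (SD, n = 4 each). By gate the S phase sum had means of 3238 (low), 2847 (midlow), 2008 (midhigh) and 1741 CPM (high). With the replicate block 26 S phase and 17 G2 and mitosis markers fell. Of 12 fibroblast markers 5 rose and 0 fell, LUM most at log2 2.02 ± 0.60, and with the replicate block 9 rose and 1 fell. Of all genes tested, 8.35% fell and 9.39% rose without the block, and 17.4% fell and 19.8% rose with it. The part of cell cycle state in the members' values was not tested.

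**Figure D4:**
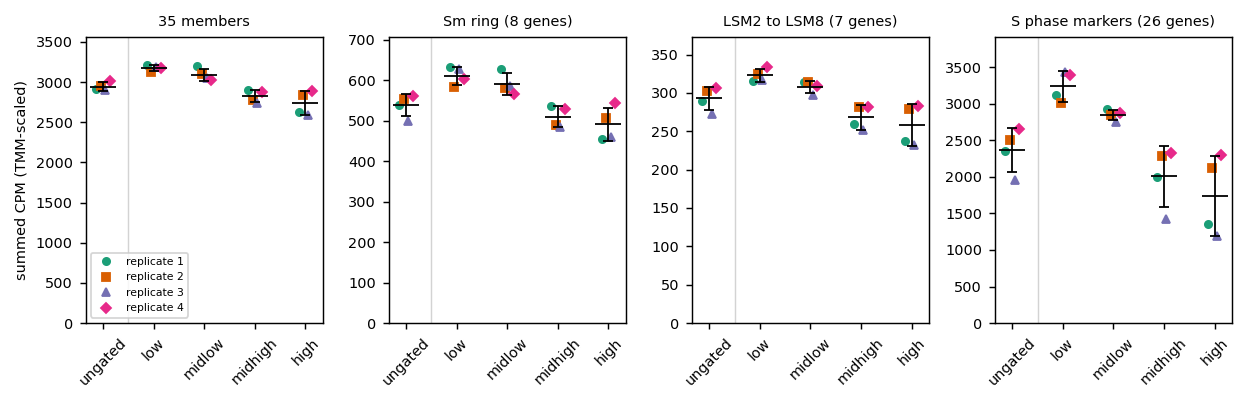
Summed TMM-scaled CPM (vertical axes from 0) of all 35 members, the Sm ring, LSM2 to LSM8 and 26 S phase markers in each library, by gate, with mean and SD in black (n = 4). High dye replicates 1 and 3 lie lowest in every panel, and the S phase sum varies over a wider relative range than the members' sum, from 1189 to 2302 CPM in high dye.

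Inhibition of LSD1, a histone demethylase, gave no call in the module in the fit without pairing. With 2 LSD1 inhibition libraries against a mixed control (1 DMSO and 1 no drug library), 0 of 35 members passed, 0 had an unadjusted p under 0.05 (6.78% of all genes did) and DESeq2 called 0 (0.85% of genes higher and 0.0214% lower), where 16 of 14002 genes (0.114%), all higher, were called. The smallest adjusted p of a member was 0.826 (edgeR). The median log2 fold change was -0.05 for the members and 0.00 for all genes. SNRPN had the largest difference, with 2.05 and 1.88 CPM under LSD1 inhibition and 1.55 (DMSO) and 1.68 (no drug) CPM in the controls, a log2 difference of 0.29 ± 0.29. Its 4 values rest on 32, 30, 25 and 27 counts.

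With the replicate number as a block, which sets LSD1 inhibition replicate 1 against DMSO and replicate 2 against no drug, 1 member was lower and 1 higher, while 6.91% of all genes were lower and 9.1% higher. LSM8 had 24.7 and 22.0 CPM under LSD1 inhibition, against 29.3 and 27.1 CPM in DMSO and no drug (log2 -0.26 ± 0.09, edgeR adjusted p 0.0288 with the block). LSM10 had 28.6 and 32.1 CPM under LSD1 inhibition, against 23.1 and 28.7 CPM in DMSO and no drug (log2 0.24 ± 0.09, edgeR adjusted p 0.0434 with the block). LSM8 was lower in both pairs and LSM10 higher in both. The share of members called is below the share of all genes. The S phase sum was 1722 and 1377 CPM under LSD1 inhibition, against 1906 and 1602 CPM in DMSO and no drug, and its part in these values was not tested.

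DOT1L inhibition, which blocks a histone H3 methyltransferase, had 1 library and is compared with the DMSO library of the same replicate number, without a test. Of the 34 members with at least 1 CPM in both libraries, 2 were lower and 2 higher past a fold that is 25% up or its inverse down, where 10.6% and 12.4% of 12452 genes were. LSM8 had 22.4 CPM (391 counts) under DOT1L inhibition and 29.3 CPM (472 counts) in DMSO, and SNRPD1 had 65.8 CPM under DOT1L inhibition and 82.9 CPM in DMSO. LSM10 had 30.6 CPM under DOT1L inhibition and 23.1 CPM in DMSO, while LSM1 had 19.8 CPM under DOT1L inhibition and 15.4 CPM in DMSO. Against the mean of the DMSO and no drug libraries, LSM8 (log2 -0.33) and LSM11 (log2 -0.34) were lower past that fold and 0 members were higher, with LSM10 at log2 0.25, LSM1 at 0.23 and SNRPD1 at -0.11. The share of all genes past that fold was not computed against this mean, so these counts have no background. Against DMSO alone, the median of the members and of all genes was log2 -0.01 each. SNRPN, at 0.917 CPM under DOT1L inhibition and 1.55 CPM in DMSO (16 and 25 counts), lay below the 1 CPM limit. The LSD1 and DOT1L comparisons share the DMSO library.

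**Figure D5:**
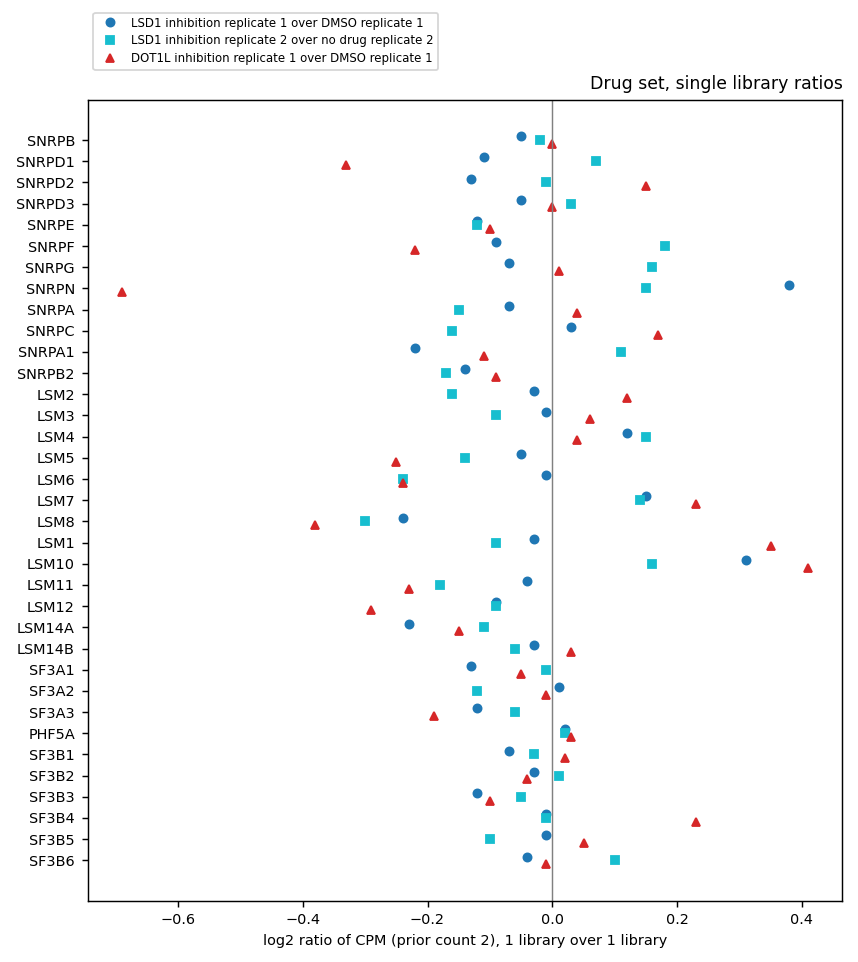
Log2 ratio of CPM of 1 library over 1 library for each member (horizontal axis, prior count of 2), for LSD1 inhibition replicates 1 and 2 over their DMSO and no drug libraries and for DOT1L inhibition over DMSO. LSM8 is left of 0 in all 3 ratios (-0.24, -0.30 and -0.38) and LSM10 right of 0 (0.31, 0.16 and 0.41), with the DMSO library shared by 2 of the 3.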

How the data were processed

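Poly(A) RNA was sequenced from 25 libraries of hiF-T cells with a kit that does not record strand, per the labels' protocols. Reads were aligned with STAR and counted per gene with HTSeq on hg38 (GRCh38), per the submitters' processing notes. Versions, annotation release and strand setting are not given in the sources used here. Deposited for each library were unnormalized counts by Ensembl gene, and the HTSeq closing lines (no feature 4.33% to 7.72% and ambiguous 7.14% to 7.62% of reads) were left out of library sizes. A long table of the whole series was not used.

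Symbols came from the reference gene name table (57532 of 58302 IDs matched), and biotypes and coordinates from GENCODE 29, which may not be the release used for counting. Counts were tested with edgeR 4.0.16 (R 4.3.3, quasi-likelihood F test, TMM, filterByExpr with minimum count 10 and minimum total 15), all 20 sort libraries in 1 fit. The gate slope used the 16 gated libraries and the LSD1 test 4 drug libraries. Calls were made below 0.05 after Benjamini-Hochberg adjustment across all genes tested. Each SE was obtained from the fold change (log2) and its F statistic, as their ratio after taking the root of F. DESeq2 1.42.0 and the other settings listed in the closing section were alternatives. The steps were tested on simulated counts drawn without a replicate effect, so that check does not cover the pairing of these libraries.

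Residuals of all 40 same-numbered pairs of sort libraries correlated at 0.146 to 0.618 (mean 0.455). The mean for the 120 other pairs was -0.152. Residuals were centred within each group, which pushes that mean below 0 when same-numbered pairs correlate, so it is no separate evidence. From the same-numbered pairs, the numbers were taken as pairing the samples, and blocked values are given where they change a call or a count. The 2 drug pairs are too few for such a check. Labels call the replicates biological, and separate cultures are not described. P-values measure only the spread between these samples.

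Ratios of 2 genes were taken from counts plus 0.5. Members, roles and lists (18 lists, 268 genes, all found) were chosen with earlier results of these data known. Values per library in the outer gates are given for at most the 3 called members of smallest p per role, for members of the 2 ratios and where a comparison turns on 1 gene. From each list at most the 3 called genes of largest change are named.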

Additional observations from a re-analysis of the deposited data

Results flagged for a closer look

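Of the 175 sets of 4 libraries (35 members in 5 sort groups), 12 held a library whose gap to its nearest neighbour took up more of the range than Dixon's 95% limit, and chance alone gives about 1 in 20. In high dye these were SNRPN replicate 4 at 2.7 CPM, with the others at 1.51 to 1.58 CPM, and SNRPC replicate 1 at 64.2 CPM, with the others at 68.0 to 68.7 CPM. In midhigh dye replicate 3 was low for SNRPF (37.6 CPM) and SNRPA (40.4 CPM), and that library also had the lowest S phase sum of its gate, 1417 CPM. In low dye LSM5 replicate 1 was high at 50.9 CPM, and replicate 2 was low for SF3A2 (35.4 CPM), PHF5A (30.3 CPM) and SF3B4 (88.9 CPM). In midlow dye LSM14A replicate 1 was high at 148 CPM and SF3B5 replicate 4 low at 40.5 CPM. In ungated cells LSM1 replicate 3 was low at 13.7 CPM and SF3A1 replicate 4 high at 144 CPM. Some flags are due by chance at that rate, and the sets share the same 20 libraries. Whether anything set the flagged libraries apart was not tested.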

How the results depend on the processing

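The count of members lower in high dye (18) was 18 with RLE or upper-quartile factors and with a filter at a mean of 1 CPM, 15 without a low-count filter, 20 with DESeq2 and 21 with the replicate block. It was 9 with the 8 compared libraries alone, 11 to 20 when 1 library was left out, and 1 without high dye libraries 1 and 3 together (14 with the replicate block). The share of all genes that fell moved too. It was 8.35% in the edgeR fit without pairing, 9.64% with DESeq2, 17.4% with the replicate block and 4.67% with the 8 compared libraries alone. It was 4.79% without high dye replicate 1, 3.98% without high dye replicate 3 and 0.152% without both (6.83% with the block). No such share is given for the scaling, filter and other single-library settings, so those member counts have no background. The count higher (0) was 1 with the replicate block and 0 to 1 when 1 library was left out, also with the block. The count falling over the gates (22) was 9 without high dye libraries 1 and 3 (21 with the replicate block). For midhigh against midlow dye the count lower (0) was 1 without a low-count filter, 13 with the replicate block and 3 with DESeq2. For high dye against ungated cells it was 4 with the replicate block, and for low dye against ungated cells the count higher (0) was 9 with the block and 1 with DESeq2. For LSD1 inhibition the counts lower and higher (0 and 0) were 1 and 1 with the replicate block. For DOT1L inhibition the count higher (2) was 0 against the mean of both controls, where the share of all genes was not computed. The log2 ratio difference of LSM8 to LSM1 (-0.33) ran from -0.39 to -0.25 and that of SNRPN to SNRPB (1.12) from 0.90 to 1.28 when 1 library was left out. The exact permutation p was then 0.0571, the smallest possible, and it was 0.125 for sign flips of the replicate block. Among the results followed through the settings, no direction reversed in the sort or LSD1 comparisons. Under DOT1L inhibition some small log2 ratios changed sign with the control. LSM5, for example, lay at -0.25 against DMSO and at 0.01 against the mean of both controls. Omission of high dye libraries 1 and 3 together, and of single libraries under the block, was chosen after seeing the data, and the cause of these shifts was not tested. At 11 to 47 counts per library, SNRPN limits what can be said of it.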
